A study of Homo sapiens with 6 samples.

Results

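The TRIM family was taken as the protein-coding genes of the deposited table whose symbol is TRIM followed by a number, without a hyphen, and 75 of the 62709 genes of the table met this rule. Levels are given in FPKM, fragments scaled to gene length and library depth, as the authors deposited them. The cells were HepG2.2.15, a hepatoma line derived from HepG2 that carries hepatitis B virus (HBV) DNA, with its genotype labelled WT and G418 in its medium. Cells of 3 libraries were kept for 3 days in medium of which 10% was YQSHJD, the herbal Yinqi Sanhuang Jiedu Decoction dissolved from a freeze-dried powder, and cells of the other 3 libraries in medium with physiological saline, for which the treatment protocol has PBS. The series asks how YQSHJD alters gene expression in this 1 line. The 6 libraries of polyadenylated RNA held 13370372 to 15615649 reads in genes. The labels do not say whether libraries of a group came from separate cultures, so the p-values rest on a spread between samples that may be technical.

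TRIM proteins share a tripartite N-terminal motif of a RING finger, B-box domains and a coiled coil, and most act as E3 ubiquitin ligases, which attach ubiquitin to a substrate. The C-terminal domain picks the substrate and divides the family into classes. PHD-bromodomain members regulate transcription, PRY-SPRY members include sensors and restriction factors of viruses, and NHL members bind RNA. In liver cells several members act in the innate response to HBV.

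The hepatocyte identity of the cells was seen in all 9 hepatocyte markers, each above 1 FPKM, with a summed level of 4356 to 5256 FPKM in YQSHJD libraries and 2899 to 3165 FPKM in saline libraries. Of 5 leukocyte markers 4 stayed under 1 FPKM, PTPRC was listed at 0, and the sum, which was nearly all LYZ, lay at 207.6 to 223.1 FPKM in YQSHJD libraries and 87.3 to 93.3 FPKM in saline libraries. Of 4 stellate markers ACTA2 alone reached 1 FPKM (list sum 13.1 to 14.0 FPKM in YQSHJD libraries, 15.0 to 19.5 in saline), and of 4 endothelial markers VWF and PECAM1 did (5.28 to 6.21 FPKM in YQSHJD libraries, 4.88 to 5.41 in saline). The part of these markers in the TRIM differences was not tested.

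TRIM28 and TRIM8 dominated the family. Over the 6 libraries 1 member, TRIM28, averaged at least 100 FPKM, and 7 averaged 10 to 100 FPKM (TRIM8, TRIM47, TRIM50, TRIM24, TRIM4, TRIM71 and TRIM65). A further 26 members averaged 1 to 10 FPKM and 3 averaged 0.1 to 1 FPKM, 12 lay under 0.1 FPKM with some reads, and 26 were listed at 0 in every library. Summed over all members, the family held 287.0, 322.7 and 341.6 FPKM in YQSHJD libraries 1 to 3, against 489.8, 452.5 and 437.0 FPKM in saline libraries 1 to 3. The groups did not overlap, with means of 317.1 ± 27.8 FPKM in YQSHJD and 459.8 ± 27.1 FPKM in saline (SD, n = 3 each). TRIM28 and TRIM8 together made up 40.5% ± 3.19 of that sum in YQSHJD and 52.2% ± 1.36 in saline. Without them the sum was 188.2 ± 7.49 FPKM in YQSHJD and 219.7 ± 8.56 FPKM in saline. In the order of levels most neighbours were not apart: of 33 neighbouring pairs among the tested members, 6 in YQSHJD and 10 in saline had library ranges that did not overlap.

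**Figure D1:**
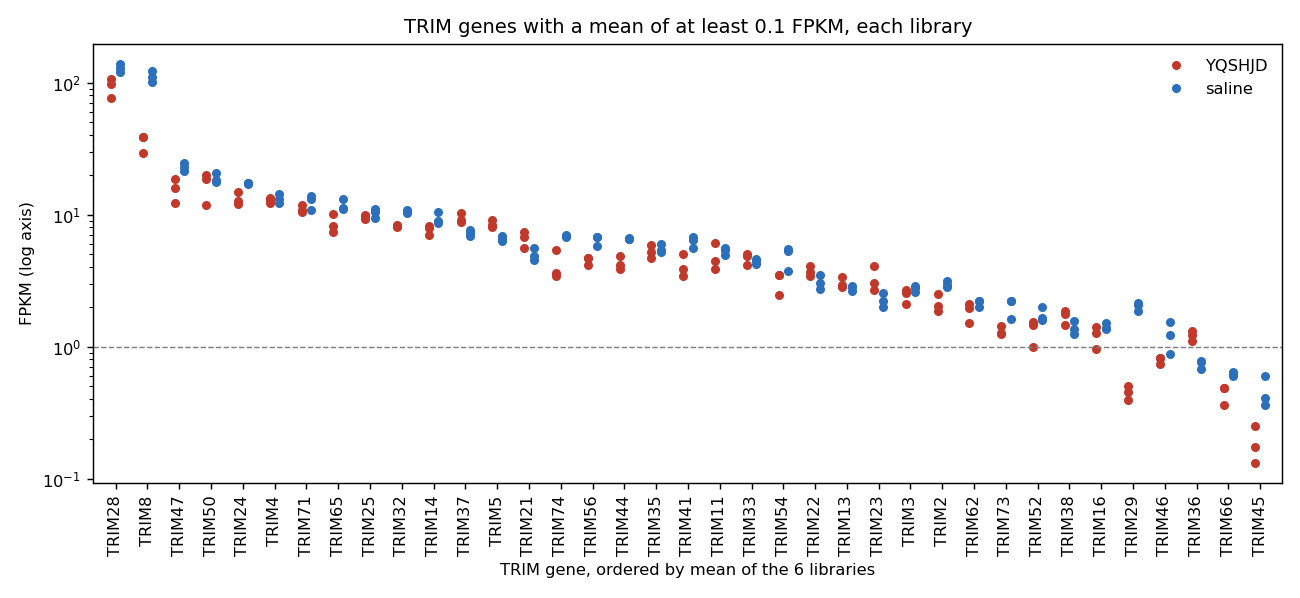
FPKM (log axis) of each TRIM gene with a mean of at least 0.1 FPKM, ordered by the mean of the 6 libraries, with 1 point per library, YQSHJD left of saline; the dashed line marks 1 FPKM. TRIM28 and TRIM8 stand at the top, and for TRIM8 and TRIM29 the 3 YQSHJD points lie well under the 3 saline points.

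Genes that reached 1 FPKM in 3 or more libraries were tested with limma on log2(FPKM + 1), two-sided, and called at a Benjamini-Hochberg adjusted p under 0.05 over all 10966 genes tested. Of the 75 TRIM genes 34 passed the filter, and the 41 others were not tested. TRIM29 passed only through its saline libraries and TRIM36 only through its YQSHJD libraries, the groups where they are high. Lower in YQSHJD were 14 of the 34 (41.2%, against 18.0% of all genes tested): TRIM8, TRIM29, TRIM74, TRIM47, TRIM44, TRIM41, TRIM54, TRIM28, TRIM56, TRIM65, TRIM73, TRIM24, TRIM32 and TRIM2. Higher in YQSHJD were 4 (11.8%, against 23.3%): TRIM37, TRIM36, TRIM21 and TRIM5, but none of these 4 was called after each library was rescaled to a fixed sum (TPM), where TRIM5 was at -0.00. That scaling called 0 members higher and 25 of 37 lower, against 6.58% and 34.4% of all genes, with log2 differences of 0.01 for TRIM37 (limma adjusted p = 0.953), 0.03 for TRIM21 (0.839) and 0.25 for TRIM36 (0.190). The 18 called members were 52.9% of those tested, against 41.4% of all genes, and the median log2 difference, YQSHJD minus saline, was -0.19 over the tested members and 0.04 over all genes tested. No overlap between YQSHJD and saline values was seen for 21 of the 34 (61.8%, against 55.3% of all genes). Without saline library 1 the test called 0 of 33 members higher and 4 lower, against 14.9% and 10.3% of all genes. Little of the family's excess of lower calls was then left. It called 0 and 8 of 33 without saline library 2 (16.1% and 11.9% of all genes) and 2 and 7 without saline library 3 (19.1% and 13.0%). The counts were 2 and 13 without YQSHJD library 1 (24.0% and 18.9%) and 1 and 9 without YQSHJD library 2 (17.1% and 14.5%). Leaving out YQSHJD library 3 gave 4 and 13 (23.6% and 20.5%). In bulk RNA fewer cells of a type and less RNA per cell cannot be told apart.

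**Figure D2:**
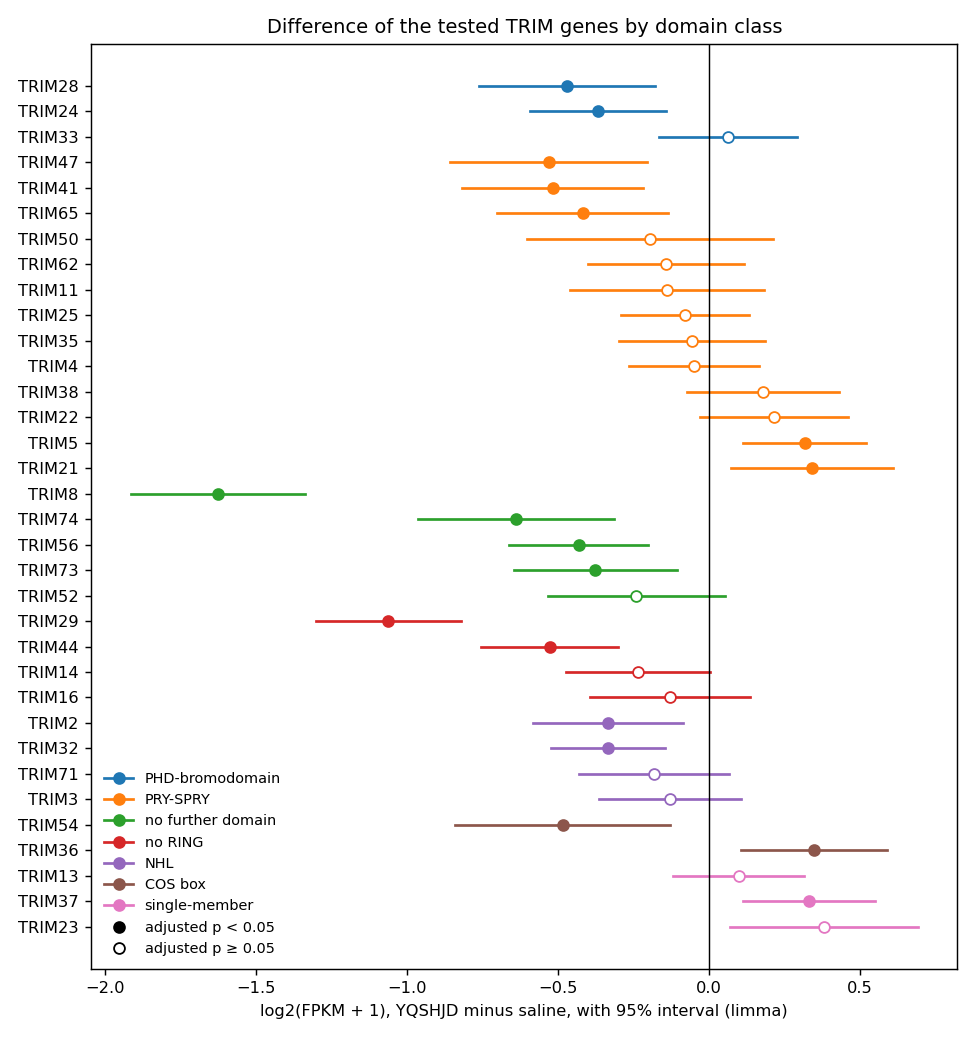
Difference of log2(FPKM + 1), YQSHJD minus saline, for the 34 tested TRIM genes grouped by domain class, with the 95% interval from limma; filled points have an adjusted p under 0.05. Most filled points lie left of 0, TRIM8 farthest, and the 4 filled points to the right are TRIM5, TRIM21, TRIM36 and TRIM37, none of them called after rescaling to a fixed sum, where TRIM5 is at -0.00.

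Of the PHD-bromodomain class, nuclear proteins that regulate transcription, 3 of 4 members were tested and 2 fell. This and the class counts that follow stand against 23.3% of all genes higher and 18.0% lower, and each class is small. TRIM28 (KAP1, ENSG00000130726, chromosome 19, 58544064 to 58550722 in the deposited table), the corepressor that KRAB zinc finger proteins recruit to silence genes and retroelements, had 76.3, 97.0 and 107.0 FPKM in YQSHJD libraries 1 to 3, against 138.3, 128.7 and 119.8 FPKM in saline libraries. Every YQSHJD library lay under every saline library, and the YQSHJD libraries spread more. The difference was 1.38-fold on means of 93.4 ± 15.7 FPKM in YQSHJD and 128.9 ± 9.28 FPKM in saline (log2 difference -0.47, SE 0.13, limma adjusted p = 0.0189).

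TRIM24 (TIF1-alpha, ENSG00000122779), a coregulator of nuclear receptors that also directs p53 to degradation, had 14.9, 12.01 and 12.8 FPKM in YQSHJD libraries, against 17.5, 17.1 and 17.3 FPKM in saline libraries. All YQSHJD values were lower and the saline values lay close together (log2 difference -0.37, SE 0.10, limma adjusted p = 0.0179). TRIM33 (TIF1-gamma), which acts on SMAD proteins in TGF-beta signalling, had 5.04, 4.87 and 4.13 FPKM in YQSHJD libraries, against 4.22, 4.64 and 4.44 FPKM in saline libraries. These ranges overlapped (log2 difference 0.06, 95% interval -0.17 to 0.29, limma adjusted p = 0.645), and the difference was -0.26 after rescaling to a fixed sum and -0.17 after GC correction, the removal of a trend on GC content from each library. TRIM66 did not pass the filter, at 0.445 ± 0.0705 FPKM in YQSHJD and 0.626 ± 0.0233 FPKM in saline (n = 3 each).

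The TRIM28 call was lost without saline library 1 (limma adjusted p = 0.0760) and without saline library 2 (0.0541), and the TRIM24 call without YQSHJD library 2 (0.0756) and without saline libraries 1 (0.0685), 2 (0.0603) or 3 (0.0518). GC correction left TRIM28 at -0.14 (adjusted p = 0.0970) and TRIM24 at -0.58 (adjusted p = 0.000203). Of 6 partners of TRIM28 in silencing 0 were called in either direction, against 41.4% of all genes tested, and the list is small. They were the histone methyltransferase SETDB1, the heterochromatin proteins CBX1, CBX3 and CBX5, ATF7IP and CHD3. Their log2 differences were -0.21 to 0.26, with a median of 0.05.

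The class with no further domain had 5 tested members of 8, of which 4 fell and 0 rose, among them TRIM8, whose difference was the largest of the family on the log2(FPKM + 1) scale, though not as a ratio of means. TRIM8 (ENSG00000171206, chromosome 10, 102644479 to 102658318, forward strand), a ligase that acts in NF-kappa-B and JAK-STAT signalling, had 29.3, 38.7 and 38.4 FPKM in YQSHJD libraries 1 to 3, against 122.0, 110.1 and 101.5 FPKM in saline libraries. The groups lay far apart, on means of 35.5 ± 5.34 FPKM in YQSHJD and 111.2 ± 10.3 FPKM in saline. That was 3.14-fold lower in YQSHJD (log2 difference -1.63, SE 0.13, 95% interval -1.92 to -1.34, limma adjusted p = 4.8e-05), and the call held under all 16 alternatives with log2 differences of -2.00 to -1.37.

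TRIM8-DT, a long non-coding RNA gene on the opposite strand that starts 338 bases from TRIM8 and lies outside the family rule, went the same way. It had 7.76, 18.8 and 21.5 FPKM in YQSHJD libraries, against 72.4, 58.5 and 64.9 FPKM in saline libraries. YQSHJD library 1 was the lowest of its group for TRIM8 and for TRIM8-DT, and no value overlapped between groups (log2 difference -2.07, SE 0.35, limma adjusted p = 0.00558).

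TRIM56, an interferon-induced ligase that strengthens sensing of cytosolic DNA, had 4.14, 4.66 and 4.70 FPKM in YQSHJD libraries, against 6.73, 5.76 and 6.82 FPKM in saline libraries. No values overlapped (log2 difference -0.43, SE 0.10, limma adjusted p = 0.00991), and the call held under all 16 alternatives. TRIM74 and TRIM73 are shortened copies of TRIM50 on the same part of chromosome 7, and since reads could be split between near-identical copies their values are uncertain. TRIM74 had 3.58, 3.42 and 5.38 FPKM in YQSHJD libraries, against 7.01, 6.94 and 6.72 FPKM in saline libraries. YQSHJD library 3 stood above the other two but still under saline (log2 difference -0.64, SE 0.14, limma adjusted p = 0.00803). TRIM73 had 1.27, 1.24 and 1.44 FPKM in YQSHJD libraries, against 2.23, 1.62 and 2.22 FPKM in saline libraries. Its groups did not overlap, with saline library 2 the closest to YQSHJD (log2 difference -0.38, limma adjusted p = 0.0329), and the call was lost without YQSHJD library 2 (0.0885), saline library 1 (0.132) or saline library 3 (0.110). TRIM50 itself was not called, at 16.8 ± 4.32 FPKM in YQSHJD and 18.9 ± 1.62 FPKM in saline (log2 difference -0.20, limma adjusted p = 0.406). TRIM52, with 1.33 ± 0.295 FPKM in YQSHJD and 1.75 ± 0.226 FPKM in saline, was not called either (-0.24, adjusted p = 0.163).

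**Figure D3:**
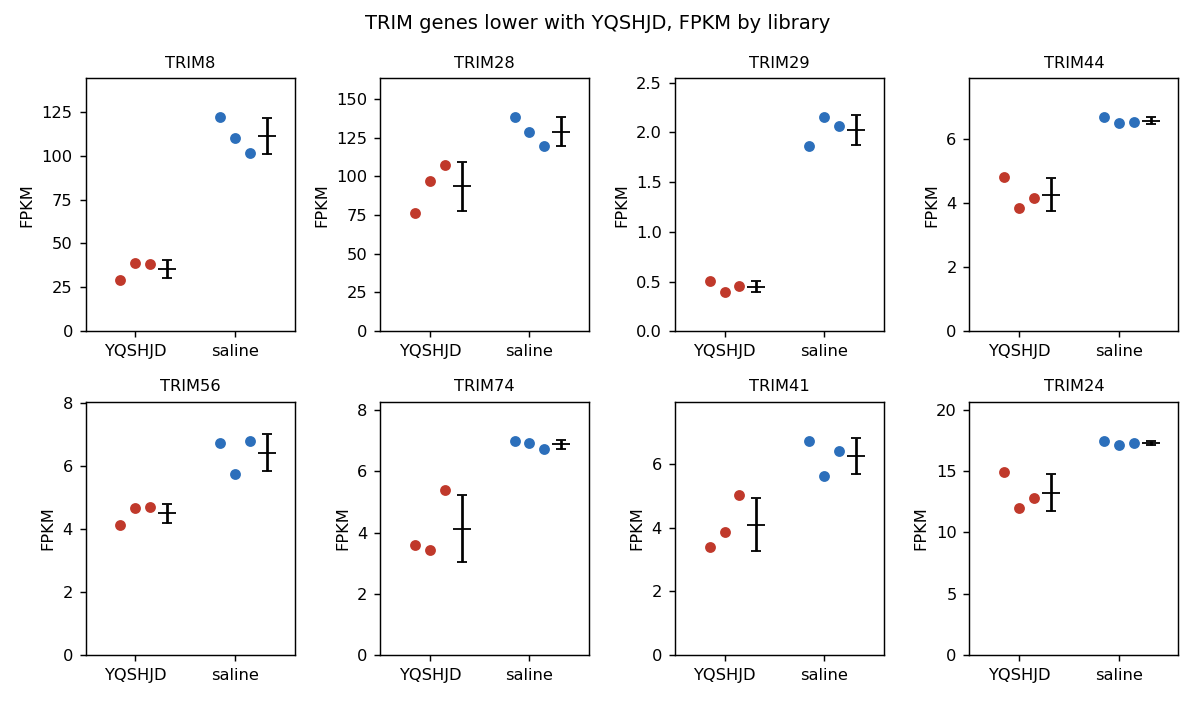
FPKM in each library (points) with mean and SD (bars, n = 3) for 8 TRIM genes lower with YQSHJD, YQSHJD left of saline, each axis from 0. In every panel the 3 YQSHJD points lie below the 3 saline points; TRIM8 averaged 35.5 FPKM in YQSHJD and 111.2 FPKM in saline.

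Of 12 members reported to act in antiviral sensing or to respond to interferon, here called antiviral, 7 were tested. Of these 2 rose (28.6%, against 23.3% of all genes) and 1 (TRIM56) fell (14.3%, against 18.0%). The median log2 difference was 0.18, against 0.04 over all genes tested. The list was chosen with earlier results of these data known. It leaves out TRIM65, which activates the RNA sensor MDA5 and was called lower (log2 difference -0.42, limma adjusted p = 0.0263). TRIM5 (ENSG00000132256, chromosome 11, 5663195 to 5938619, reverse strand), which binds incoming retroviral capsids, had 9.07, 8.12 and 8.40 FPKM in YQSHJD libraries, against 6.36, 6.67 and 6.92 FPKM in saline libraries. All YQSHJD values were higher, by 1.28-fold on the means (log2 difference 0.32, SE 0.09, limma adjusted p = 0.0221), although after rescaling to a fixed sum per library the difference was -0.00 (adjusted p = 0.982).

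TRIM21 (ENSG00000132109, chromosome 11, 4384897 to 4393702, reverse strand), the cytosolic receptor for antibody-coated virus, had 6.77, 7.37 and 5.61 FPKM in YQSHJD libraries, against 4.55, 4.84 and 5.55 FPKM in saline libraries. YQSHJD library 3 lay just above saline library 3, so the groups were apart by a small margin (log2 difference 0.34, SE 0.12, limma adjusted p = 0.0472). The TRIM21 call was lost under 11 of 16 alternatives, among them rescaling to a fixed sum (0.839) and leaving out YQSHJD library 1 (0.0579), YQSHJD library 2 (0.158), saline library 1 (0.163), saline library 2 (0.132) or saline library 3 (0.0528). The TRIM5 call was lost without saline library 1 (0.0954) or 2 (0.0804).

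TRIM22, an interferon-induced nuclear repressor of viral transcription, had 4.04, 3.69 and 3.45 FPKM in YQSHJD libraries, against 3.01, 2.72 and 3.51 FPKM in saline libraries. YQSHJD library 3 lay below saline library 3 (log2 difference 0.22, 95% interval -0.03 to 0.46, limma adjusted p = 0.141), and the difference was -0.07 after rescaling to a fixed sum and -5.14e-05 after GC correction. TRIM5 and TRIM22 overlap on opposite strands, and without a stated strand setting reads of the shared stretch cannot be told apart; the same holds for TRIM32 with ASTN2, TRIM25 with DGKE, TRIM23 with TRAPPC13 and TRIM37 with PPM1E. TRIM25, the ligase that activates the RNA sensor RIG-I, had 9.68, 9.28 and 9.98 FPKM in YQSHJD libraries, against 10.9, 10.5 and 9.37 FPKM in saline libraries. Its groups overlapped (log2 difference -0.08, 95% interval -0.29 to 0.13, limma adjusted p = 0.518). TRIM14, a RING-less adaptor of mitochondrial antiviral signalling, had 7.04, 7.97 and 8.20 FPKM in YQSHJD libraries, against 10.4, 8.94 and 8.61 FPKM in saline libraries. Its values did not overlap, but the test missed the threshold (log2 difference -0.24, 95% interval -0.48 to 0.00, limma adjusted p = 0.0994), and TRIM14 overlaps NANS on the other strand. TRIM38 was at 1.69 ± 0.210 FPKM in YQSHJD and 1.38 ± 0.156 FPKM in saline (log2 difference 0.18, limma adjusted p = 0.230). Of the 5 antiviral members not tested, TRIM31 and TRIM34 were listed at 0 in every library. TRIM26 had 1 read in YQSHJD library 2 and none in the others, and TRIM6 had 1 read in saline library 3 and none in the others. TRIM69 averaged 0.0430 FPKM in YQSHJD and 0.0447 FPKM in saline. TRIM6 and TRIM34 overlap the gene TRIM6-TRIM34 on the same strand, which is outside the rule. How reads of the shared stretch were counted is not known, so the low values of TRIM6 and TRIM34 are uncertain.

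**Figure D4:**
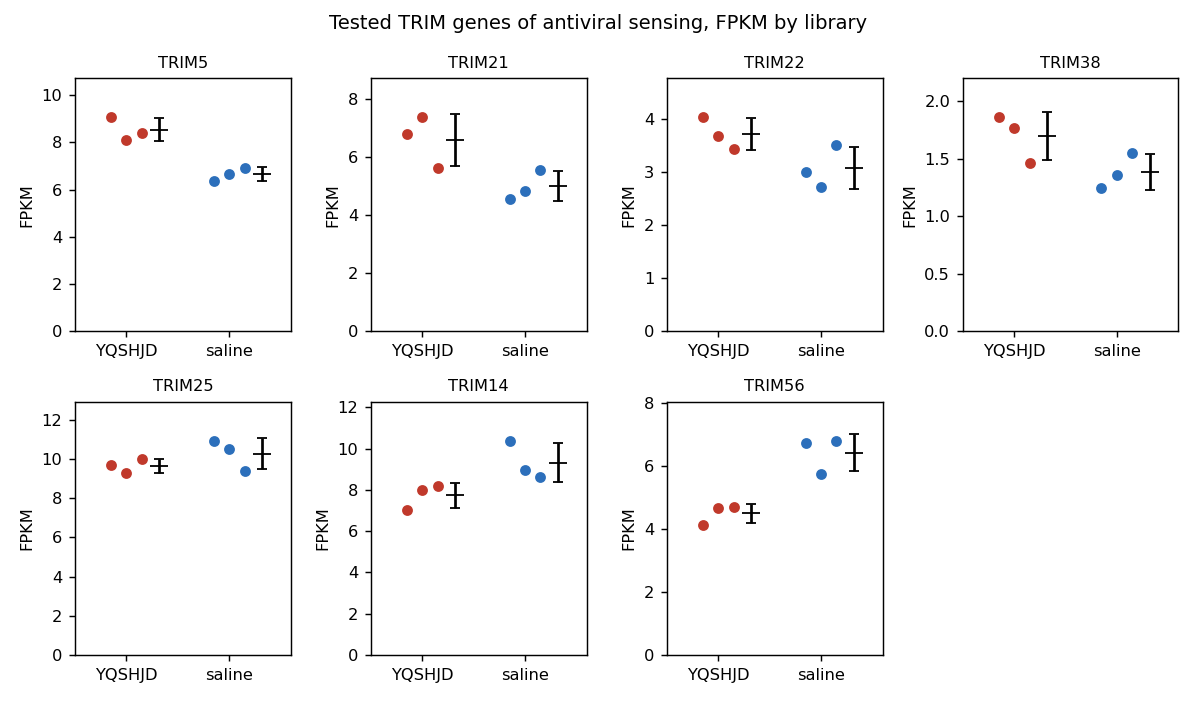
FPKM in each library (points) with mean and SD (bars, n = 3) for the 7 tested antiviral TRIM genes, YQSHJD left of saline, each axis from 0. The YQSHJD points lie above saline for TRIM5 and TRIM21 (log2 differences of -0.00 and 0.03 after rescaling to a fixed sum), below it for TRIM14 and TRIM56, and overlap it for TRIM22, TRIM25 and TRIM38.

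The promoters of TRIM5, TRIM21 and TRIM14, the tested antiviral members that held it, are shown for a motif that interferon-responsive genes carry. RefSeq windows from 250 bases before to 50 bases after the start site on GRCh38.p14 were found for 60 of the 75 members. The motif GAAANNGAAA, the core of the interferon-stimulated response element, searched on both strands, was in 1255 of 35116 windows (3.57%). TRIM genes were counted once if any of their windows matched, a measure unlike that share of single windows. The antiviral list takes in members reported to respond to interferon, so its count is partly set by the choice of list. The motif was in 10 of the 60 TRIM genes and in 6 of the 11 antiviral members with a window (TRIM5, TRIM21, TRIM14, TRIM26, TRIM34 and TRIM69). Of these 6, 2 rose (TRIM5 and TRIM21, at -0.00 and 0.03 after rescaling to a fixed sum), 1 was tested and not called and 3 were not tested; of the 10 lowered members with a window, 2 held the motif (TRIM2 and TRIM44). The windows follow, 5′ to 3′ on the gene's own strand, with the match in capitals; in TRIM5 and TRIM14 it reads on the opposite strand, and in TRIM21 a pair of overlapping matches begins after the start site.
TRIM5, chr11:5685025-5685324, reverse strand: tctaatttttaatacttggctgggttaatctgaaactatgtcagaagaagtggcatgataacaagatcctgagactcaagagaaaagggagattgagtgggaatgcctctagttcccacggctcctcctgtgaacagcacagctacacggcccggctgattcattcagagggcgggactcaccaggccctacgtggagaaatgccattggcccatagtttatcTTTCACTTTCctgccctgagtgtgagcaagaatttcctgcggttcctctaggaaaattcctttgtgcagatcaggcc
TRIM21, chr11:4393653-4393952, reverse strand: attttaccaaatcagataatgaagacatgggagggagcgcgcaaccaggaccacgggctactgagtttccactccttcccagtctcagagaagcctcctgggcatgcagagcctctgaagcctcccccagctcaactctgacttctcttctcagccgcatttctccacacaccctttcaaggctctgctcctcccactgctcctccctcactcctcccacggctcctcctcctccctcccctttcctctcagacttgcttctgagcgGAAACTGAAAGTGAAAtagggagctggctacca
TRIM14, chr9:98119173-98119472, reverse strand: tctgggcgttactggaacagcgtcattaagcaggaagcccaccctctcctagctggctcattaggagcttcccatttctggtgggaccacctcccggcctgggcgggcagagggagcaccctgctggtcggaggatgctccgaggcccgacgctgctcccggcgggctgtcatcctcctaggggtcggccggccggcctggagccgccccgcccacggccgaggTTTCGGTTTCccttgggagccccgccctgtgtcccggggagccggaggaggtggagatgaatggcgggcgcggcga
A match is a run of letters, not evidence of binding. For the antioxidant response motif TGACNNNGC 6 of 60 TRIM genes matched (13.35% of all windows), both strands searched. For the aryl hydrocarbon receptor core TNGCGTG 4 of 60 did (5.51% of all windows). Here too genes are set beside single windows. No window was held for TRIM8.

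Interferon-response genes outside the family were few at measurable levels. Of 12 listed, 5 were tested, 3 rose and 0 fell (23.3% and 18.0% of all genes), among them ISG15, a ubiquitin-like modifier (87.7 ± 10.1 FPKM in YQSHJD, 57.9 ± 2.73 FPKM in saline), and OAS1, a sensor of double-stranded RNA (3.76 ± 0.581 FPKM in YQSHJD, 1.67 ± 0.0585 FPKM in saline, n = 3 each). The log2 difference was 0.59 for ISG15 (limma adjusted p = 0.00289) and 0.82 for OAS1 (limma adjusted p = 0.000755). Both are on the deposited scale. Rescaling to a fixed sum, which moved the median of all genes from 0.04 to -0.29, is not given for them. IFI6 had 2.18 ± 0.605 FPKM in YQSHJD and 3.91 ± 1.36 FPKM in saline and was not called (limma adjusted p = 0.0596). The 7 genes not tested lay under 1 FPKM in every library. Of these, IFIT3 (0.360 FPKM in YQSHJD, 0.0554 in saline), IFIT2 (0.280, 0.0353), RSAD2 (0.0849, 0.0192) and IRF9 (0.0083, 0.0034) averaged higher in YQSHJD. IFIT1 (0.0686, 0.201) and MX1 (0.0143, 0.0241) averaged lower, and IFI44L was listed at 0.

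In the PRY-SPRY class, which here leaves out the members listed as without a RING finger, 13 of 40 members were tested. Of these 2 rose (15.4%, against 23.3% of all genes) and 3 fell (23.1%, against 18.0%), with a median log2 difference of -0.08. The 2 that rose were TRIM5 and TRIM21, with neither called and TRIM5 at -0.00 after rescaling. The 3 that fell were TRIM47, TRIM65 and TRIM41. TRIM47, a ligase of the cytoplasm, had 12.3, 16.0 and 18.7 FPKM in YQSHJD libraries, against 24.5, 22.8 and 21.2 FPKM in saline libraries. Its groups did not overlap (log2 difference -0.53, SE 0.14, limma adjusted p = 0.0181). TRIM65, which activates the RNA sensor MDA5, lies 1753 bases from TRIM47 on the same strand of chromosome 17 and had 7.40, 8.23 and 10.1 FPKM in YQSHJD libraries, against 13.0, 11.1 and 11.1 FPKM in saline libraries. Both genes were lowest in YQSHJD library 1 and highest in saline library 1, and TRIM65 did not overlap between groups (log2 difference -0.42, SE 0.12, limma adjusted p = 0.0263).

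TRIM41, a nuclear and cytoplasmic ligase known to act on protein kinase C, had 3.40, 3.86 and 5.02 FPKM in YQSHJD libraries, against 6.73, 5.63 and 6.40 FPKM in saline libraries. Again no value overlapped (log2 difference -0.52, SE 0.13, limma adjusted p = 0.0142). Without saline library 1 the calls of TRIM47 (0.0712), TRIM65 (0.106) and TRIM41 (0.0600) were lost; without saline library 2 those of TRIM47 (0.0512) and TRIM65 (0.0538), without saline library 3 those of TRIM65 (0.0546) and TRIM41 (0.0513), and without YQSHJD library 2 that of TRIM65 (0.0779). After GC correction TRIM47 was at -0.14 (adjusted p = 0.139), TRIM65 at an adjusted p of 0.0502, and TRIM41 at -0.60 (0.00852). The other 8 tested members of the class, TRIM22, TRIM25 and TRIM38 included, were not called; TRIM4, TRIM11, TRIM35 and TRIM62 had log2 differences of -0.05, -0.14, -0.06 and -0.14.

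All 4 NHL members were tested; 2 fell and 0 rose, against 18.0% lower and 23.3% higher among all genes. TRIM32, a ligase whose loss causes a limb-girdle muscular dystrophy, had 8.05, 8.30 and 8.15 FPKM in YQSHJD libraries, against 10.6, 10.3 and 10.8 FPKM in saline libraries. Both groups were tight and far apart (log2 difference -0.33, SE 0.08, limma adjusted p = 0.0128), and the call was lost without saline library 1 (0.0571). TRIM2, a ligase of neurons that acts on neurofilament, averaged 2.14 ± 0.343 FPKM in YQSHJD and 2.94 ± 0.157 FPKM in saline (log2 difference -0.34, SE 0.11, limma adjusted p = 0.0372), and its call was lost without any of YQSHJD libraries 2 (0.104) and 3 (0.0878) and saline libraries 1 (0.0858), 2 (0.129) and 3 (0.0893). TRIM71 (LIN41), an RNA-binding repressor of mRNAs in stem cells and a target of let-7, had 11.7, 10.4 and 10.8 FPKM in YQSHJD libraries, against 13.8, 13.2 and 10.9 FPKM in saline libraries. The ranges overlapped, since saline library 3 lay under YQSHJD library 1 (log2 difference -0.18, 95% interval -0.43 to 0.07, limma adjusted p = 0.210). TRIM3 was not called (-0.13, adjusted p = 0.341).

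Of the 4 members listed here as without a RING finger, all tested, 2 fell. TRIM29 (ENSG00000137699), known from epithelia and DNA damage signalling, had 0.502, 0.393 and 0.451 FPKM in YQSHJD libraries, against 1.86, 2.16 and 2.06 FPKM in saline libraries. These values rest on 47 to 65 reads in YQSHJD libraries and 285 to 339 in saline libraries, and they did not overlap. The means differed 4.52-fold, the widest ratio of the called members, while on the log2(FPKM + 1) scale the difference was -1.06 (SE 0.11, limma adjusted p = 0.000166), which understates the change of so low a gene. TRIM44, which has a zinc finger like that of ubiquitin proteases in place of the RING, had 4.82, 3.84 and 4.16 FPKM in YQSHJD libraries, against 6.70, 6.52 and 6.53 FPKM in saline libraries. Saline values were nearly the same and all above YQSHJD (log2 difference -0.53, SE 0.10, limma adjusted p = 0.00381), and the call held under all 16 alternatives, with -0.73 after GC correction.

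TRIM16, which acts in the autophagy of damaged membranes, had 1.42, 0.951 and 1.28 FPKM in YQSHJD libraries, against 1.501, 1.39 and 1.35 FPKM in saline libraries. Its ranges overlapped (log2 difference -0.13, 95% interval -0.40 to 0.13, limma adjusted p = 0.393). TRIM16L, a partial copy of TRIM16 that the table lists as a long non-coding RNA, so that it is outside the rule, had 1.72, 1.36 and 1.13 FPKM in YQSHJD libraries, against 0.425, 0.511 and 0.550 FPKM in saline libraries. Every YQSHJD value was higher (log2 difference 0.68, SE 0.13, limma adjusted p = 0.00363), it passed the filter only through the YQSHJD libraries, and since reads could be shared with TRIM16 both values are uncertain.

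In the COS-box class, which binds microtubules, 2 of 8 members were tested. TRIM54 (MURF3), known from muscle, had 2.47, 3.47 and 3.51 FPKM in YQSHJD libraries, against 5.27, 3.72 and 5.51 FPKM in saline libraries. Saline library 2 lay just above YQSHJD (log2 difference -0.49, SE 0.16, limma adjusted p = 0.0354), TRIM54 overlaps UCN on the other strand, and the call was lost without YQSHJD library 1 (0.0586) or 2 (0.0510) or saline library 1 (0.120) or 3 (0.123). TRIM36 averaged 1.21 ± 0.0995 FPKM in YQSHJD and 0.740 ± 0.0599 FPKM in saline on 62 to 103 reads per library (log2 difference 0.35, SE 0.11, limma adjusted p = 0.0305). Its groups did not overlap, and the call was lost without saline libraries 1 (0.123), 2 (0.0821) or 3 (0.0702). TRIM46, a microtubule protein of axons, did not pass the filter at 0.791 ± 0.0488 FPKM in YQSHJD and 1.21 ± 0.330 FPKM in saline.

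Among members that form classes of their own, 3 of 5 were tested and 1 rose. TRIM37, a MATH-domain ligase that controls centriole assembly and is mutated in mulibrey nanism, had 10.3, 9.16 and 8.75 FPKM in YQSHJD libraries, against 7.27, 6.83 and 7.66 FPKM in saline libraries. The groups did not overlap (log2 difference 0.33, SE 0.10, limma adjusted p = 0.0249), and the difference was 0.01 after rescaling to a fixed sum. The call was lost without YQSHJD library 2 (0.0618) or saline libraries 1 (0.0797) or 2 (0.108). TRIM23, which carries an ARF GTPase domain, had no overlap between 3.25 ± 0.714 FPKM in YQSHJD and 2.24 ± 0.283 FPKM in saline and missed the threshold (log2 difference 0.38, limma adjusted p = 0.0523). TRIM13, a ligase of the endoplasmic reticulum, was at 3.04 ± 0.265 FPKM in YQSHJD and 2.77 ± 0.109 FPKM in saline (adjusted p = 0.436). TRIM45 did not pass the filter at 0.184 ± 0.0592 FPKM in YQSHJD and 0.455 ± 0.124 FPKM in saline.

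Of the 75 members 34 had at most 3 reads in every library. These included all 7 members between 28503296 and 33457544 on chromosome 6 (TRIM10, TRIM15, TRIM26, TRIM27, TRIM31, TRIM39 and TRIM40), the stretch that holds the major histocompatibility complex. In that stretch 160 of 183 protein-coding genes (87.4%) had at most 3 reads in every library, against 33.6% on the rest of chromosome 6 and 33.1% of all protein-coding genes outside it. For this reason a 0 there is given as a listed value and no more. The lettered and copy-number members TRIM43B, TRIM49 and its copies, TRIM64 and its copies, TRIM51 and TRIM51G were also listed at 0; the last pair was not placed in a class.

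The differences of the tested members varied with base composition. GC content of the longest transcript had a median of 43.2% in the 4 raised members and 56.5% in the 14 lowered ones, near the 43.8% and 56.6% of all raised and all lowered genes. Across the 34 tested members Pearson's r between GC content and the log2 difference was -0.60, against -0.39 over 10811 genes, a description across genes that share libraries and are not independent. An alternative chosen after seeing the data removed a loess trend on GC content from each library. It left 1 of 34 members higher (TRIM21, log2 difference 0.37) and 11 lower, against 24.9% and 20.0% of all genes under the same correction. Of the 14 lowered members TRIM28, TRIM47, TRIM65, TRIM54 and TRIM73 were no longer called, and TRIM71 (-0.27, adjusted p = 0.0384) and TRIM52 (-0.40, adjusted p = 0.0475) were called besides. TRIM8 stayed at -1.37, TRIM29 at -0.85, TRIM44 at -0.73 and TRIM56 at -0.33.

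**Figure D5:**
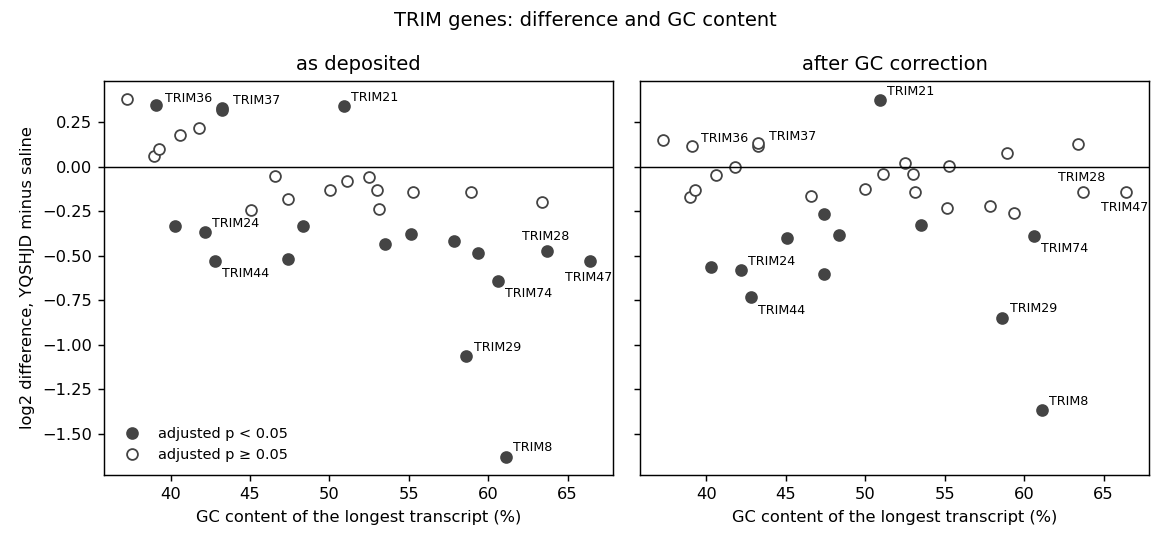
GC content of the longest transcript (%) against the log2 difference, YQSHJD minus saline, of the 34 tested TRIM genes, as deposited (left) and after GC correction (right); filled points have an adjusted p under 0.05. In the left panel r is -0.60 and the raised members lie at 39.1% to 50.9% GC; in the right panel TRIM21 is the single filled point above 0, and TRIM28 and TRIM47 are open.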

How the data were processed

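Polyadenylated RNA of 3 YQSHJD and 3 saline libraries was sequenced from Illumina TruSeq libraries, per the labels' protocols; the submitters' processing notes name CASAVA 2.19. The authors deposited FPKM values per gene in 1 table of 62709 genes with names, lengths and coordinates. Not given in the sources used here were aligner, counter, annotation, genome build and strand setting. A table line was empty (1), and 6 value columns that match no sample were not used. FPKM times gene length gave whole multiples of 1 step for 100% of values (tolerance 0.01), from which reads were recovered. FPKM summed to 422189 to 476123 per YQSHJD library and 341948 to 360170 per saline library, so the scaling sets the level of each difference.

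Genes that reached 1 FPKM in 3 or more libraries (10966) were tested with limma 3.58.1 in R 4.3.3 on log2(FPKM + 1), with trend and robust prior, no covariate, Benjamini-Hochberg adjustment at 0.05 and 95% intervals. Folds are ratios of mean FPKM. The procedure was tested on simulated data. Python 3.11.15, pandas 2.3.3 and matplotlib 3.10.9 were used for tables and figures. GC content came from GENCODE transcripts, known for 98.6% of tested genes, and promoter windows from RefSeq GRCh38.p14.

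The members and the lists were chosen with earlier results of these data known. All called members are named; values in every library are given for the 12 called members with the largest log2 difference and for 19 fixed genes where they had reads; genes outside the family serve as examples of their lists, and some list genes are not reported here. Alternatives were other pseudocounts (0.1 and 0.01), all genes with reads, a stricter minimum (5 FPKM), TPM rescaling, median-of-ratios scaling, limma without trend and robust prior, limma-voom on the recovered reads, a replicate block, leaving out each library and, added after seeing the data, a GC correction (loess span 0.5).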

Additional observations from a re-analysis of the deposited data

How the results depend on the processing

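Of 343 values of 22 named members under alternatives, 274 kept their direction and side of the threshold, 59 lost the call, 5 gained one and 5 reversed. Against 4 higher and 14 lower of 34 members, no filter gave 0 and 6 of 49, where 6.04% of all genes were higher and 5.08% lower. TPM rescaling gave 0 and 25 of 37 (6.58% and 34.4% of all genes). The replicate block gave 0 and 11 of 34 (18.4% and 15.4%) and GC correction 1 and 11 of 34 (24.9% and 20.0%). Both pseudocounts gave 4 and 14 of 34 (23.1% and 17.6% of all genes), and so did limma-voom (25.1% and 20.1%). The limma-voom fit used the library sizes implied by the deposited FPKM, so it kept the main scaling and could not test it. Those sizes were 0.885 to 0.923 times the reads in genes in YQSHJD libraries and 1.03 to 1.05 times in saline libraries. Median-of-ratios scaling gave 3 and 14 of 34 (19.8% and 21.0%), as did the fit without trend and robust prior (22.8% and 18.0%). A minimum of 5 FPKM, which left 20 members tested, gave 3 and 10 (28.8% and 21.4%). Leaving out 1 library gave 0 to 4 higher and 4 to 13 lower of 33 members. Among all genes 14.9% to 24.0% were then higher and 10.3% to 20.5% lower. TPM rescaling shifted the median log2 difference of all genes to -0.29 and that of the members to -0.56. Reversed values were TRIM33 at -0.26 and TRIM22 at -0.074 and TRIM5 at -0.0033 with TPM rescaling, and TRIM33 at -0.17 and TRIM22 at -5.14e-05 with GC correction. The cause was not tested. None of the 4 higher members was called with the same sign under every alternative run. Of the 14 lower ones TRIM8, TRIM74, TRIM56 and TRIM44 were called under all 16 alternatives. TRIM29 was called in the 12 alternatives in which it was tested. With any 1 saline library left out, or at a minimum of 5 FPKM, TRIM29 did not pass the filter. Those alternatives therefore could not test its call.

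The replicate numbers showed no sign of pairing: deviations from the group means correlated at -0.24, -0.11 and -0.04 for numbers 1, 2 and 3. Deviations from a mean of 3 libraries are tied to each other, so these values cannot decide whether samples were paired. YQSHJD library 1 was the lowest of its group for 14, the highest for 15 and the middle for 5 of the 34 members. Its mean correlation with its group was 0.976. With 13370372 to 15615649 reads per library, members near 1 FPKM, such as TRIM36 on 62 to 103 reads, have imprecise differences.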

Other observations

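TRIM ligases take ubiquitin from E2 enzymes that an E1 enzyme has charged. Of 9 listed ubiquitin, E1 and E2 genes 8 were tested, 3 rose and 0 fell, with a median log2 difference of 0.22. The share called, 37.5%, was near the 41.4% of all genes tested, of which 23.3% were higher. Among them the E1 enzyme UBA6 averaged 3.47 ± 0.559 FPKM in YQSHJD and 2.13 ± 0.299 FPKM in saline (SD, n = 3 each, log2 difference 0.51, limma adjusted p = 0.0118), and the E2 enzyme UBE2D1 averaged 11.6 ± 1.81 FPKM in YQSHJD and 8.22 ± 0.198 FPKM in saline (0.45, adjusted p = 0.0169). UBB, UBA1, UBE2D2, UBE2D3 and UBE2N were not called. Values after rescaling to a fixed sum are not given for the genes of this list.

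Of 6 genes of the KEAP1-NRF2 pathway, the cell's oxidant response, 3 rose and 1 fell (23.3% and 18.0% of all genes), with a median log2 difference of 1.93. NQO1 averaged 2000.3 ± 99.1 FPKM in YQSHJD and 361.0 ± 16.5 FPKM in saline, and TXNRD1 and GCLM rose by log2 differences of 2.38 and 2.60. KEAP1, the adaptor through which a cullin ligase degrades NRF2, averaged 44.1 ± 6.57 FPKM in YQSHJD and 57.5 ± 4.32 FPKM in saline (log2 difference -0.38, limma adjusted p = 0.0338). Of 5 relatives of the TRIM family with other names, PML was tested and not called (log2 difference -0.20, adjusted p = 0.280), and MID1, under the filter, averaged 1.02 ± 0.196 FPKM in YQSHJD and 0.438 ± 0.0513 FPKM in saline.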
